A study of Mus musculus with 12 samples.

Results

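The 38 genes described here encode the subunits of integrins and laminins. They were taken from the 23735 gene rows of the deposited tables by symbol, as Itga or Itgb followed by a number or letter code and Lama, Lamb or Lamc followed by 1 digit. Of them, 27 encode integrin chains (18 alpha and 9 beta) and 11 encode laminin chains (5 alpha, 3 beta and 3 gamma). The cells were stem cells of the hair follicle, isolated by sorting from the back skin of mice, and 12 RNA libraries of them form 7 groups. The transcription factor Foxc1 was present in 4 groups and deleted in 3.

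The anagen groups, from the growth phase of the hair cycle, were Het and iKO cells from male mice at postnatal day 30. Both were on a mixed Black Swiss and C57BL/6 background, carried the Sox9CreER driver with a YFP reporter and had received tamoxifen. The Het label is for a heterozygous genotype, so the controls may hold fewer intact Foxc1 copies than wild-type mice. Second telogen, the resting phase, was represented by WT and cKO cells of Black Swiss mice, each with 1 library from a day 42 male and 1 from a day 46 female, where deletion was driven by K14Cre, active throughout the skin epithelium. A further iKO group in second telogen came from males of the mixed background at day 60, again with Sox9CreER. These 5 groups held 2 libraries each. Shh-Het females of an Agouti strain, without Cre, were sampled once in first telogen, near day 23, and once in substage II of anagen, near day 26. Their titles call the same libraries WT.

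Integrins are membrane receptors made of 1 alpha and 1 beta chain that hold cells to the extracellular matrix. Laminins are matrix proteins of 1 alpha, 1 beta and 1 gamma chain, and they form the network of the basement membrane on which hair follicle stem cells rest. In skin, the integrin of Itga6 and Itgb4 anchors hemidesmosomes to a laminin that contains the Lama3 and Lamb3 chains, while the integrin of Itga3 and Itgb1 binds the same laminin outside hemidesmosomes. Integrins of Itgav with Itgb6 or Itgb8 bind latent TGF-beta and release its activity. The integrin of Itga8 and Itgb1 binds nephronectin (Npnt), a matrix protein that bulge stem cells deposit for the arrector pili muscle. Surface alpha 6 integrin is also commonly used to sort these cells, and the gate used here is not given in the labels.

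Each table holds 1 pooled value per group and gene in FPKM, a read density scaled to transcript length and library size, so values cannot be split by library and a difference of cell number cannot be told apart from one of RNA per cell. Foxc1 checked the labels: in the authors' deposited tables it was 23.9 FPKM in anagen Het and 1.40 in anagen iKO, 26.5 in telogen WT and 1.59 in cKO, and, in the joint table, 3.17 in telogen iKO. The epidermal keratin Krt14 lay at 1452 to 4351 FPKM and the bulge marker Cd34 at 129 to 883 FPKM in all 7 groups. Of 8 bulge markers tested in anagen iKO against Het, 3 were lower and none higher at the authors' adjusted p (q) below 0.05. They were Cd34 (432 to 244 FPKM), Nfatc1 (41.9 to 28.2 FPKM) and Npnt. In telogen cKO against WT none of 8 passed. Krt5 and Krt15 are listed at 0 in several groups because the authors' software marked them HIDATA, too abundant to estimate, in 20 and 15 of 21 joint comparisons. Markers of other cells were present, most of all in first telogen, where 12 leukocyte markers summed to 310 FPKM (18.9 to 109 in the other 6 groups) and 10 fibroblast markers to 2418 FPKM (162 to 1139 elsewhere). In anagen II, 6 pericyte and muscle markers summed to 302 FPKM (37.0 to 75.4 elsewhere).

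In the joint table, 31 of the 38 genes reached 1 FPKM in at least 1 group: 14 of 18 integrin alpha, 7 of 9 integrin beta, 4 of 5 laminin alpha, and all 3 laminin beta and 3 laminin gamma genes. In every one of the 7 groups 19 reached 1 FPKM and 12 reached 10 FPKM, when a failed estimate is left out. First telogen had 29 genes at 1 FPKM or more, and the other groups had 19 to 23. Only Lamb3 had a failed estimate. Its status was FAIL in the anagen table and in the 6 joint comparisons with anagen Het, where Het is listed at 0, so that 0 is not a measured level.

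**Figure D1:**
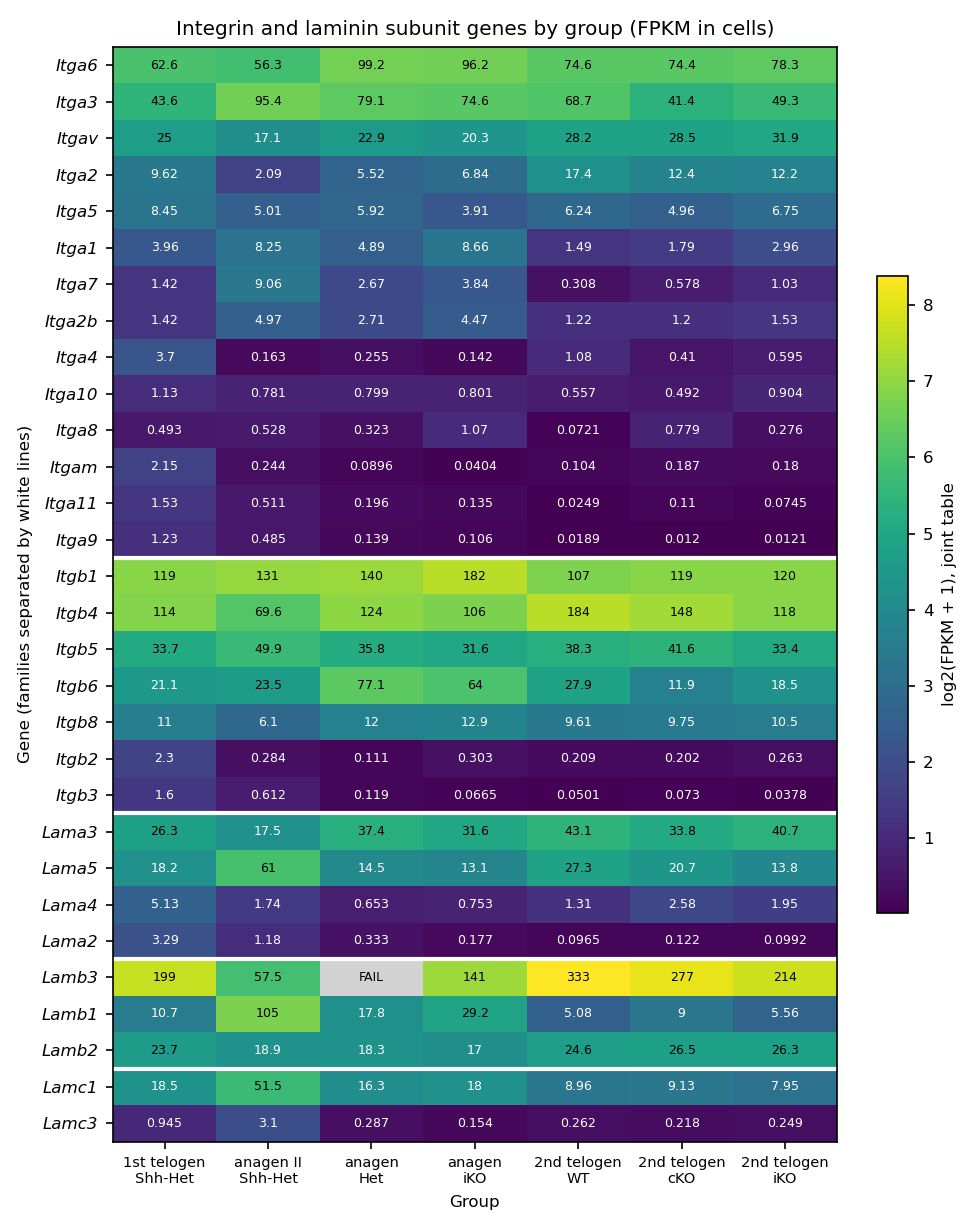
Pooled FPKM of 30 of the 31 integrin and laminin subunit genes that reached 1 FPKM, by group in the joint table. Each cell prints the authors' FPKM and its colour gives log2(FPKM + 1), rows are ordered by mean level within each family, and grey marks the failed Lamb3 estimate in anagen Het. Lamb3, Itgb1 and Itgb4 are the brightest rows, Lamb1 and Lama5 are brightest in anagen II, and Itgb6 is brightest in both day 30 anagen groups.

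Loss of Foxc1 came with a higher Lamb1 and a higher Itga8 in anagen iKO against Het and in telogen cKO against WT. In anagen, Itga1 and Itga2b also rose and Itga5 fell, whereas in telogen cKO cells Lama4 rose and Itgb6 and Itga4 fell. A gene was called where the authors' q, their p adjusted over all tested genes, was below 0.05. In anagen iKO against Het, 27 of the 38 genes were tested, 1 failed, 10 had too few reads for a test, and 5 were called (18.5%), 4 higher and 1 lower. Over all genes tested there, 10.3% were called, 5.18% higher and 5.08% lower. In telogen cKO against WT, 25 were tested, 13 had too few reads, and 5 were called (20%), 3 higher and 2 lower, against a background of 6.62%, made of 3.75% higher and 2.87% lower. The 2 genes called in both comparisons were 40% of each list of 5, where over all genes the shared calls were 36.8% of the anagen and 56.3% of the telogen list. The median of log2 (FPKM + 1) ratios over the genes that reached 1 FPKM was -0.07 in anagen (30 genes) and -0.01 in telogen (31 genes), against -0.01 and 0 over all such genes, so both medians lay near 0.

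Lamb1 encodes the beta 1 chain, found in laminins of many tissues. At chr12:31950158-32014504 (mm9), it measured 18.8 FPKM in anagen Het and 31.0 FPKM in iKO, a log2 fold of 0.72 ± 0.26 (approximate SE) with q = 0.00106 in the authors' deposited table. In telogen it measured 4.89 FPKM in WT and 8.64 FPKM in cKO, a log2 fold of 0.82 ± 0.35 with q = 0.0222 in the authors' deposited table. Telogen iKO cells did not show the rise: the joint values were 5.08 FPKM in WT and 5.56 FPKM in iKO, with q = 0.727 in the authors' deposited table. Both comparisons share the WT libraries. Fibroblasts also make this chain. In anagen, where Lamb1 rose, 5 of the 10 fibroblast markers fell and 1 rose, and their sum was 292 FPKM in Het and 162 FPKM in iKO. In telogen cKO 1 fell, Mmp2 (92.0 to 27.4 FPKM), and 1 rose, Col1a1 (9.72 to 60.5 FPKM), with sums of 402 FPKM in WT and 286 FPKM in cKO. Without Col6a1, the largest in all 4 groups, the sums were 163 and 104 FPKM in anagen and 192 and 163 FPKM in telogen.

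Itga8, the alpha chain of the nephronectin receptor, stayed near or below 1 FPKM throughout, at chr2:12028286-12233942 (mm9). It was 0.343 FPKM in anagen Het and 1.13 FPKM in iKO, a log2 fold of 1.73 ± 0.48 with q = 0.00106 in the authors' deposited table. It was 0.0695 FPKM in telogen WT and 0.748 FPKM in cKO, a log2 fold of 3.43 ± 0.89 with q = 0.00417 in the authors' deposited table. The joint table gave 0.0721 FPKM in WT and 0.276 FPKM in telogen iKO, called higher at q = 0.0168 in the authors' deposited table. All 3 groups without Foxc1 thus lay above the group they were compared with, from a very low base. Both telogen comparisons share the WT libraries, and telogen iKO differs from WT also in strain, age, sex, Cre driver and any tamoxifen given with Sox9CreER. The row E030013I19Rik is at the same locus, and its reads cannot be separated without strand. It went from 0.0253 to 0.141 FPKM in anagen and from 0.0381 to 0.219 FPKM in cKO. In telogen iKO it was lower than in WT, at 0.0132 FPKM, where Itga8 was higher. The Itga8 ligand Npnt went the other way in anagen, from 231 FPKM in Het to 90.9 FPKM in iKO with q = 0.00106 in the authors' deposited table. In telogen Npnt measured 51.5 FPKM in WT and 39.2 FPKM in cKO, with q = 0.536 there. Pericyte and muscle markers, whose cells can make Itga8, summed to 46.6 and 45.0 FPKM in anagen Het and iKO and to 74.5 and 75.4 FPKM in telogen WT and cKO, most of it Cspg4. Without Cspg4 the other 5 summed to 7.77 and 11.3 FPKM in anagen and 0.320 and 0.561 FPKM in telogen, higher in the knockout like Itga8. Of these Acta2 rose in anagen, from 6.55 to 10.8 FPKM, and Rgs5 was at 0 in both telogen groups. The part of other cells in the Itga8 and Lamb1 results was not tested.

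Itgb6, the beta chain that pairs with alpha v, is a gene of epithelia at chr2:60436348-60560660 (mm9). In telogen it was 26.8 FPKM in WT and 11.4 FPKM in cKO, a log2 fold of -1.23 ± 0.34 with q = 0.00159 in the authors' deposited table. Telogen iKO cells were also below WT, at 18.5 against 27.9 FPKM in the joint table, a log2 fold of -0.59 ± 0.28 with q = 0.0155 in the authors' deposited table. In day 30 anagen the values were 81.7 FPKM in Het and 67.8 FPKM in iKO, with q = 0.444 in the authors' deposited table. Its partner Itgav measured 27.2 FPKM in telogen WT and 27.3 FPKM in cKO, with q = 0.999 there.

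The promoters of these 3 genes are printed because of their calls in the comparisons of cells without and with Foxc1. Itga8 was called in all 3, and Lamb1 in anagen iKO and telogen cKO but not in telogen iKO. Itgb6 was called in both telogen comparisons but not in anagen. Itga4 had calls in the same comparisons as Itgb6 and is not printed. Telogen iKO differs from WT also in strain, age, sex, Cre driver and any tamoxifen given with Sox9CreER. Each run is the 250 bases before the RefSeq start site (GRCm38.p6, a different build from the mm9 positions above), written 5′ to 3′ on the gene's strand. Lamb1 is chr12:31265043-31265292 on the plus strand, Itga8 is chr2:12301945-12302194 on the minus strand, and Itgb6 is chr2:60722604-60722853 on the minus strand, the more upstream of its 2 annotated start sites. Capitals mark matches to any of 5 motifs searched on both strands.
Lamb1: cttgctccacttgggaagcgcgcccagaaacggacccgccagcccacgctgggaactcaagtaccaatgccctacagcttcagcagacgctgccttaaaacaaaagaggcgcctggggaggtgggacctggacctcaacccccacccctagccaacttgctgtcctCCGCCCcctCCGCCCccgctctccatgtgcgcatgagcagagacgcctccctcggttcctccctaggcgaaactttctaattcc
Itga8: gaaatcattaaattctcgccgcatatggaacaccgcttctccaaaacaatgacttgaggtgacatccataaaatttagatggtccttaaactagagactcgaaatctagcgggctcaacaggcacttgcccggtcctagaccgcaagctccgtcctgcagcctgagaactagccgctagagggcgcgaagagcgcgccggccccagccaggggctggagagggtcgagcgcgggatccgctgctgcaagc
Itgb6: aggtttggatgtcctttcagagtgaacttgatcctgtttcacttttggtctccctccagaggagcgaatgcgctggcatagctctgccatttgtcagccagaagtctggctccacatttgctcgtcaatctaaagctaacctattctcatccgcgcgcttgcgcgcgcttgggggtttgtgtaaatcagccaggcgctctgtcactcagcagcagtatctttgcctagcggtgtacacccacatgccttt
The capitals in Lamb1 are 2 GC boxes (GGGCGG, read on the minus strand), which start 84 and 75 bases before the start site, and neither Itga8 nor Itgb6 held a match. The RefSeq table matched 24 of the 38 genes, with 27 windows. The forkhead motifs GTAAACA and GTAAATA were in 0 of these 27 windows and in 5.76% of all 32851 windows. GGGCGG was in 9 of the 27 (33.3%) and 32.7% of all, TGAGTCA, the AP-1 motif, in 1 of 27 (3.7%) and 4.46%, and TATAAA in 0 of 27 and 12.4%. A match is a description of these letters and no match says only that they are not in this window.

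**Figure D2:**
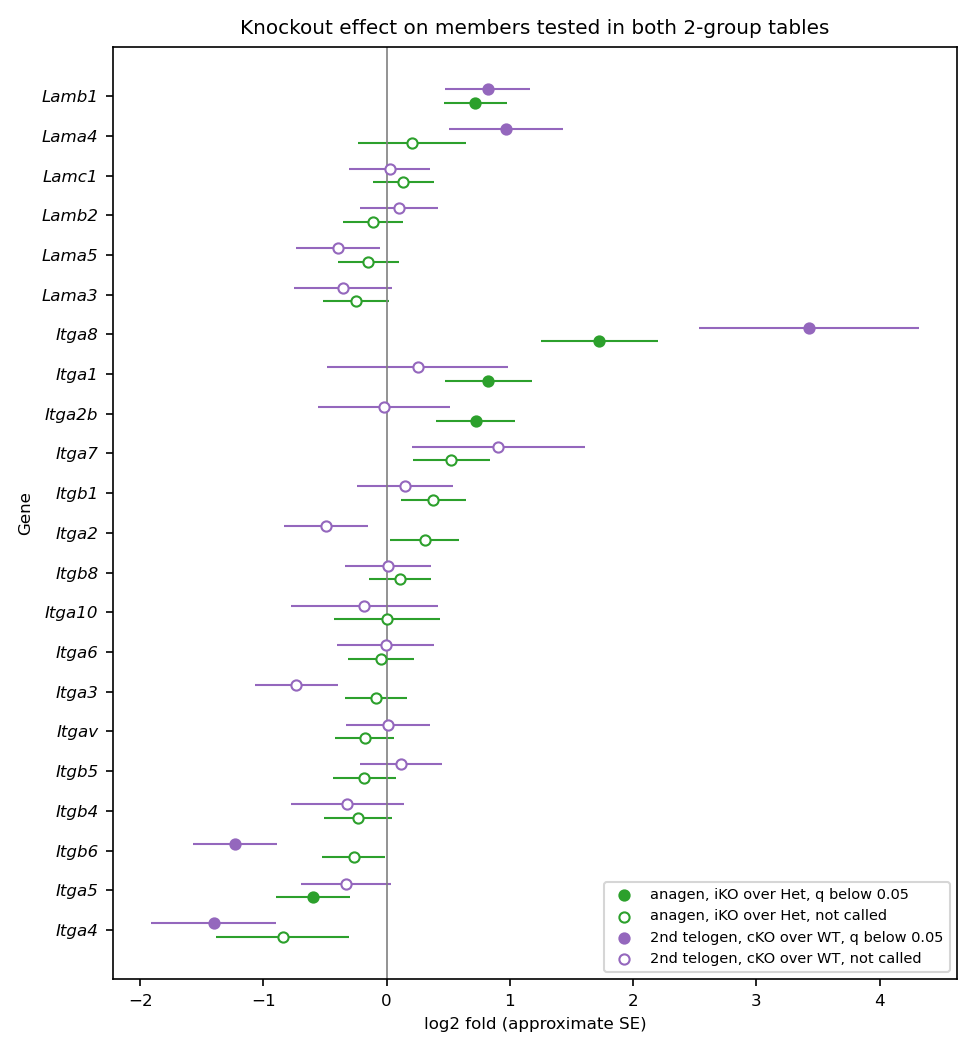
The authors' log2 fold without over with Foxc1 for 22 of the 23 subunit genes tested in both 2-group tables, with bars of 1 approximate SE. Filled points passed q below 0.05. Lamb1 and Itga8 are filled on the right in both stages, and Itgb6 is filled on the left in telogen only, where the difference between stages did not pass its test.

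The knockout effect was compared between stages for the 23 genes tested in both 2-group tables, which share no library, as a z value with Benjamini-Hochberg adjustment over 13033 genes. None of the 23 differed at an adjusted p below 0.05, where 129 of all genes (0.99%) did, a count that was 46 with the larger standard error and 176 from the joint table. Itgb6 alone had an unadjusted p below 0.05. Its telogen minus anagen difference was -0.96 ± 0.43 (SE) on the log2 scale, with an adjusted p of 0.787 from the z test over all Cuffdiff folds. So the calls made in 1 stage alone, Itga1, Itga2b, Itga5, Lama4, Itgb6 and Itga4, were not shown to be specific to that stage.

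Telogen iKO against WT used the joint table, in which the authors' q was adjusted over 21 comparisons at once. There 27 genes were tested, 11 had too few reads, and 7 were called (25.9%), 3 higher and 4 lower. Over all genes 12.9% were called, 7.01% higher and 5.88% lower. Itga7, Itga8 and Lama1 were higher, and Itga4, Itgb4, Itgb6 and Lama5 were lower. These groups also differ in strain, age, sex, Cre driver and any tamoxifen given with Sox9CreER, which cannot be told apart from Foxc1 here. The median log2 (FPKM + 1) ratio over 31 genes was 0.06, against -0.01 over all genes.

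The hemidesmosome chains were among the most abundant. Itga6 (chr2:71624995-71696484, mm9) measured 62.6 FPKM in first telogen, 56.3 in anagen II, 99.2 in anagen Het, 96.2 in anagen iKO, 74.6 in telogen WT, 74.4 in cKO and 78.3 in telogen iKO. It was called in none of the 5 tested comparisons, with q from 0.181 to 0.999 in the authors' deposited tables. Itgb4 (chr11:115836038-115874033, mm9) measured, in the same order of groups, 114, 69.6, 124, 106, 184, 148 and 118 FPKM. Its level was highest in telogen WT. It was called lower only in telogen iKO against WT, a log2 fold of -0.64 ± 0.34 with q = 0.0459 in the authors' deposited table, and that call was lost at 0.0907 when p was adjusted over this comparison alone. In cKO against WT its q was 0.834 in the authors' deposited table. Galk1, at the same locus, measured 7.49 FPKM in WT and 5.53 FPKM in telogen iKO. The FPKM ratio of Itgb4 to Itga6 ran from 1.10 in anagen iKO to 2.47 in telogen WT. The partners of this complex, Cd151, Plec, Dst and Col17a1, included no call in either 2-group table. In telogen iKO against WT, Cd151 (163 to 108 FPKM) and Plec (55.2 to 34.4 FPKM) fell with q = 0.0172 and 0.0260 in the authors' deposited table.

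Lamb3 and Lama3, chains of the laminin that hemidesmosomes bind, were also high. Lamb3 (chr1:195128187-195170072, mm9) was the most abundant of the 38 genes, at 199 FPKM in first telogen, 57.5 in anagen II, 141 in anagen iKO, 333 in telogen WT, 277 in cKO and 214 in telogen iKO, with no estimate in anagen Het. In telogen, 320 FPKM in WT and 266 FPKM in cKO did not pass the test, with q = 0.899 in the authors' deposited table. Its anagen knockout effect could not be tested because of the failed estimate. Lama3 measured 26.3, 17.5, 37.4, 31.6, 43.1, 33.8 and 40.7 FPKM in the 7 groups, in the order given for Itga6. It was called in none of the 5 comparisons, with q of at least 0.218 in the authors' deposited tables.

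Lama5, Lamb1 and Lamc1, which together form the other main laminin of the skin basement membrane, varied more. Lama5 (chr2:179911077-179960564, mm9) measured 18.2, 61.0, 14.5, 13.1, 27.3, 20.7 and 13.8 FPKM in the 7 groups. It was lower in telogen iKO than in WT, by 0.99 ± 0.28 on the log2 scale with q = 0.000444 in the authors' deposited table, and was not called in cKO against WT (q = 0.540). Mir7005, at the same locus, was lower too, at 656 FPKM in WT and 359.8 FPKM in telogen iKO, and shared reads cannot be separated. Lamb1 measured 10.7, 105, 17.8, 29.2, 5.08, 9.0 and 5.56 FPKM. Lamc1 (chr1:155066051-155179916, mm9) measured 18.5, 51.5, 16.3, 18.0, 8.96, 9.13 and 7.95 FPKM. All 3 were highest in anagen II, and only Lamb1 passed the test in a 2-group knockout table. Lamb2, the other beta chain that can join these laminins, stayed between 17 and 26.5 FPKM, so the ratio of Lamb1 to Lamb2 ran from 0.207 in telogen WT and 0.211 in telogen iKO to 0.340 in cKO, 0.970 in anagen Het, 1.72 in anagen iKO and 5.56 in anagen II.

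**Figure D3:**
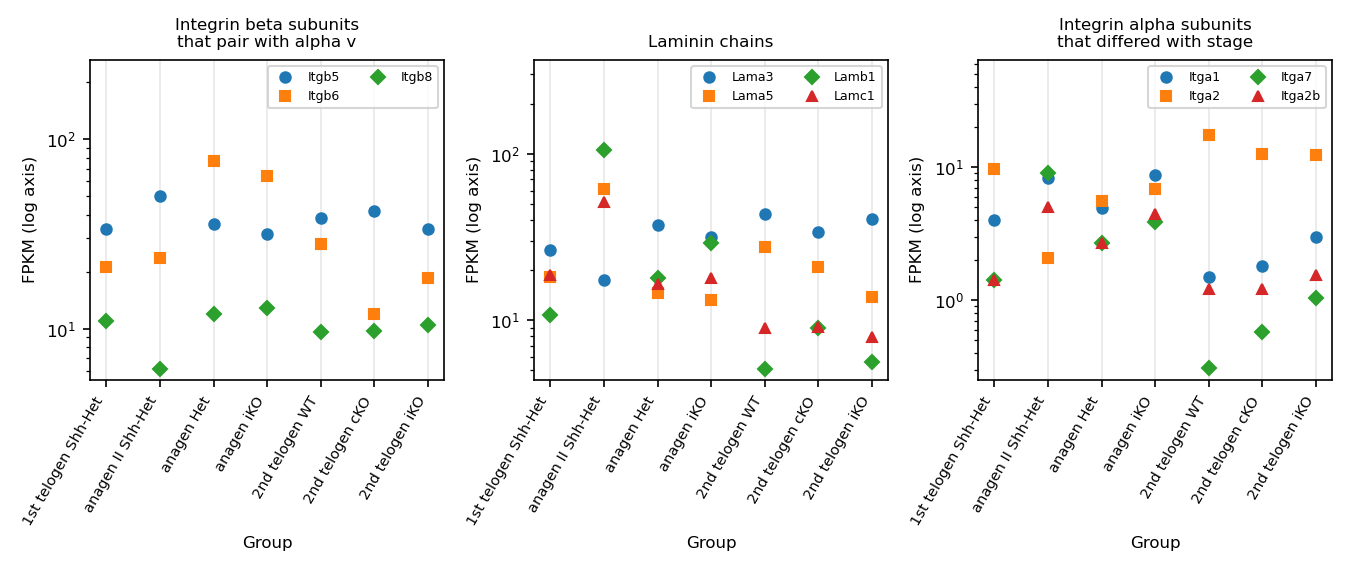
Pooled FPKM (log axis) by group of the 3 beta chains that pair with alpha v, of 4 laminin chains and of 4 integrin alpha chains, each point being 1 group value of the joint table. Itgb6 lies above Itgb5 only in both day 30 anagen groups, Lamb1, Lama5 and Lamc1 peak in anagen II, and in second telogen Itga2 lies above its day 30 anagen values while Itga1, Itga7 and Itga2b lie below theirs.

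Itgb1, the beta chain shared by most matrix receptors (chr8:131209553-131257479, mm9), measured 119 FPKM in first telogen, 131 in anagen II, 140.0 in anagen Het, 182 in anagen iKO, 107 in telogen WT, 119 in cKO and 119.5 in telogen iKO. In anagen its own-table values of 148 FPKM in Het and 193 FPKM in iKO did not pass the test (q = 0.245 in the authors' deposited table). Itga3, its laminin-binding partner, measured 43.6, 95.4, 79.1, 74.6, 68.7, 41.4 and 49.3 FPKM in the 7 groups. In telogen it was 66.1 FPKM in WT and 39.8 FPKM in cKO, a log2 fold of -0.73 ± 0.34 with q = 0.0625 in the authors' deposited table. The joint table called the same difference, with q = 0.00254 over 21 comparisons. The telogen effect of Itga3 thus passed in 1 of the authors' 2 fits, which differ in both the fit and the adjustment.

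Among the beta chains of alpha v, the vitronectin receptor chain Itgb5 varied least, from 31.6 to 49.9 FPKM, and was called in none of the 5 comparisons. Itgb6 measured 21.1, 23.5, 77.1, 64.0, 27.9, 11.9 and 18.5 FPKM. Itgb8, the other chain linked to TGF-beta activation, measured 11.0, 6.10, 12.0, 12.9, 9.61, 9.75 and 10.5 FPKM and was called in none of the 5 comparisons either. Itgb6 exceeded Itgb5 only in the day 30 anagen groups, with a ratio of 2.15 in Het and 2.03 in iKO, and was lowest relative to it in cKO (0.287). In the other 4 groups the ratio was 0.471 to 0.728. Itgav itself measured 25.0, 17.1, 22.9, 20.3, 28.2, 28.5 and 31.9 FPKM.

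The collagen receptor chains Itga1 and Itga2 both pair with Itgb1. Itga1 measured 3.96, 8.25, 4.89, 8.66, 1.49, 1.79 and 2.96 FPKM, and in anagen rose from 5.18 FPKM in Het to 9.18 FPKM in iKO, a log2 fold of 0.83 ± 0.35 with q = 0.0195 in the authors' deposited table. Pelo, a gene at the same locus, measured 14 and 17.8 FPKM there, with q = 0.699 in the authors' deposited table. Itga2 measured 9.62, 2.09, 5.52, 6.84, 17.4, 12.4 and 12.2 FPKM and was called in neither 2-group knockout table. Telogen WT thus had the highest Itga2 and the lowest Itga1 of the 7 groups.

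Itga5, the fibronectin receptor chain, measured 8.45, 5.01, 5.92, 3.91, 6.24, 4.96 and 6.75 FPKM. In anagen it fell from 6.28 FPKM in Het to 4.15 FPKM in iKO, a log2 fold of -0.60 ± 0.30 with q = 0.0414 in the authors' deposited table. Itga4, which binds fibronectin and VCAM-1 and is best known from leukocytes, measured 3.70, 0.163, 0.255, 0.142, 1.08, 0.410 and 0.595 FPKM. In telogen it fell from 1.04 FPKM in WT to 0.394 FPKM in cKO, a log2 fold of -1.40 ± 0.51 with q = 0.00638 in the authors' deposited table, and it was also lower in telogen iKO (q = 0.0172). The 12 leukocyte markers summed to 82.7 FPKM in WT, 88.6 in cKO and 109 in telogen iKO, most of it Cd74. Without Cd74 the other 11 summed to 20.7, 15.0 and 24.1 FPKM. Of the 12, 10 were tested in cKO against WT and 1 was called, lower: Cd68 (8.18 to 2.71 FPKM, q = 0.0112 in the authors' deposited table). In telogen iKO against WT 11 were tested and 1 was called, higher: Ptprc (0.275 to 0.585 FPKM, q = 0.0359 in the authors' deposited table). Cerkl, a row at the Itga4 locus, was 0.161 FPKM in WT, 0.0591 FPKM in cKO and 0.184 FPKM in telogen iKO. The part of leukocytes in the Itga4 values was not tested.

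Itga7, a laminin receptor chain known from muscle, measured 1.42, 9.06, 2.67, 3.84, 0.308, 0.578 and 1.03 FPKM. It was called higher in telogen iKO than in WT, a log2 fold of 1.75 ± 0.56 with q = 0.00254 in the authors' deposited table. Mettl7b, at the same locus, was 0.0980 FPKM in WT and 0.441 FPKM in telogen iKO. Itga2b, the alpha chain of the platelet fibrinogen receptor, measured 1.42, 4.97, 2.71, 4.47, 1.22, 1.20 and 1.53 FPKM and in anagen rose from 2.87 to 4.74 FPKM, a log2 fold of 0.72 ± 0.32 with q = 0.0260 in the authors' deposited table. Its platelet partner Itgb3 was at 0.119 and 0.0665 FPKM in these groups, and the platelet markers Pf4, Ppbp and Gp9 summed to 1.09 FPKM in Het and 0.587 FPKM in iKO, with Ppbp and Gp9 at 0. In anagen II, where Itga2b was highest, Pf4 was 3.14 FPKM. The part of platelets in the Itga2b values was not tested.

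Of the other laminin alpha chains, Lama4, a chain of vessel and nerve basement membranes, measured 5.13, 1.74, 0.653, 0.753, 1.31, 2.58 and 1.95 FPKM. In telogen it rose from 1.26 FPKM in WT to 2.47 FPKM in cKO, a log2 fold of 0.97 ± 0.46 with q = 0.0468 in the authors' deposited table. The 8 endothelial markers summed to 1.12 FPKM in WT and 1.41 FPKM in cKO, with none of them at 1 FPKM, and 1 of them, Flt1, was called higher (0.0317 to 0.573 FPKM, q = 0.0163 in the authors' deposited table). The part of vessel cells in the Lama4 result was not tested. Lama2, the muscle laminin chain, measured 3.29, 1.18, 0.333, 0.177, 0.0965, 0.122 and 0.0992 FPKM. Lama1, known from embryonic basement membranes, stayed under 1 FPKM, with its highest value of 0.834 FPKM in telogen iKO against 0.429 in WT (q = 0.0149 in the authors' deposited table).

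The remaining 13 genes were low. Lamc3 reached 3.10 FPKM in anagen II and was under 1 FPKM in the other 6 groups. The 6 genes Itga9, Itga10, Itga11, Itgam, Itgb2 and Itgb3 reached 1 FPKM in first telogen alone, at 1.13 to 2.30 FPKM. Itgam and Itgb2, which together form a receptor of macrophages and neutrophils, had 2.15 and 2.30 FPKM there and at most 0.303 FPKM in any other group. That library also had the largest sum of leukocyte markers, whose part in these values was not tested. The genes Itgad, Itgae, Itgal, Itgax, Itgb2l and Itgb7, all chains of leukocyte integrins, reached 1 FPKM in no group. With Lama1 these are the 7 genes that stayed below that level.

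More of these genes were called between the hair cycle stages than with loss of Foxc1, as was also the case over all genes. In telogen WT against anagen Het, 27 genes were tested, 1 failed, 10 had too few reads, and 13 were called (48.1%), 5 higher and 8 lower in telogen. The background over the whole table was 25.4%, made of 13.5% higher and 11.9% lower. In telogen iKO against anagen iKO, 27 were tested, 11 had too few reads, and 17 were called (63%), 8 higher and 9 lower. Here the background was 33.2%, made of 17.6% higher and 15.5% lower. The first pair differs also in strain, sex, age, Cre driver, tamoxifen and Foxc1 dose, and the second, with 1 driver and 1 background, in age. Remaining Foxc1 also differed in the second pair, at 1.32 FPKM in anagen iKO and 3.17 FPKM in telogen iKO, with q = 0.00156 in the authors' deposited table. The pairs share no library with each other, but share libraries with the knockout comparisons. The median log2 (FPKM + 1) ratio of telogen over anagen was -0.13 in control cells (30 genes) and -0.04 in iKO cells (31 genes), against 0 over all genes in both.

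Of the 24 genes tested in both stage comparisons, 11 were called in both and all 11 in the same direction. They were 91.7% of the 12 called in the first and 68.8% of the 16 called in the second, where over all genes the shares were 74.6% and 56.9%. Itga2, Itga4, Lama1 and Lama4 were higher in telogen, and Itga1, Itga2b, Itga7, Itga8, Itgb6, Lamb1 and Lamc1 were lower. Lamb1 had a log2 fold of -1.80 ± 0.29 in control cells and -2.39 ± 0.29 in iKO cells, with q = 0.000444 in both in the authors' deposited table. Itgb6 had log2 folds of -1.47 ± 0.29 and -1.79 ± 0.28, with the same q there. The epithelial receptor chain Itgb6 and the laminin chain Lamb1 were thus both lower in second telogen than in day 30 anagen, with and without Foxc1. In the Shh-Het pair, with 1 library each, Itgb6 was 21.1 FPKM in first telogen and 23.5 FPKM in anagen II.

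Itga7 had log2 folds of -3.12 ± 0.51 in control cells and -1.90 ± 0.40 in iKO cells, and Itga1 of -1.71 ± 0.55 and -1.55 ± 0.37, in the authors' deposited table. Lamc1 had smaller folds, of -0.87 ± 0.27 and -1.18 ± 0.28. In the opposite direction, Itga2 had log2 folds of 1.66 ± 0.30 and 0.84 ± 0.30 in the authors' deposited table. The collagen receptor chains thus differed between the stages in opposite directions. Lama5 was called only in control cells (0.91 ± 0.28 higher in telogen). Itga5, Itgav, Lamb2 (higher in telogen), Itga3 and Itgb1 (lower) were called only in iKO cells. Whether these differ between the comparisons was not tested. Lamb3 was called higher in telogen in iKO cells (141 to 214 FPKM, q = 0.0435 in the authors' deposited table) and failed in control cells. Lama2 was called lower in telogen in control cells (-1.78 ± 0.69, q = 0.00405 there) and had too few reads in iKO cells.

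Other cell types' markers were not level between telogen and anagen. Of 8 endothelial markers 6 were called lower in telogen WT than in anagen Het and 5 lower in telogen iKO than in anagen iKO, with sums of 8.47 and 5.72 FPKM in the anagen groups and 1.12 and 0.730 FPKM in telogen. Of 6 pericyte and muscle markers, 3 were called lower and 1 higher in telogen WT than in anagen Het. In telogen iKO against anagen iKO, 2 were lower and none higher. Acta2, a gene of smooth muscle, was 6.18 and 10.2 FPKM in anagen Het and iKO and 0.250 and 0.192 FPKM in telogen WT and iKO. Cspg4 was higher in telogen WT than in anagen Het (38.9 to 74.2 FPKM). The sums of the 6 were 46.6 and 45.0 FPKM in anagen Het and iKO and 74.5 and 37.0 FPKM in telogen WT and iKO, most of it Cspg4. Leukocyte markers were called higher in telogen for 4 of 12 in control cells and 8 of 12 in iKO cells. In iKO cells 1 was called lower, Lyz2 (3.12 to 0.142 FPKM), and in control cells none was. Of 10 fibroblast markers, 5 were called lower and 3 higher in telogen WT than in anagen Het. In telogen iKO against anagen iKO, 4 were lower and 3 higher. Col3a1 (log2 folds of -6.23 in control and -5.42 in iKO cells) and Dcn (-5.89 and -5.27) were lower in both. Col6a1, Col6a2 and Mmp2 were higher in both. The fibroblast sums were 292 and 162 FPKM in anagen Het and iKO and 402 and 228 FPKM in telogen WT and iKO. The part of these cells in the stage differences of Itga1, Itga7, Itga4 and the laminin chains was not tested.

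**Figure D4:**
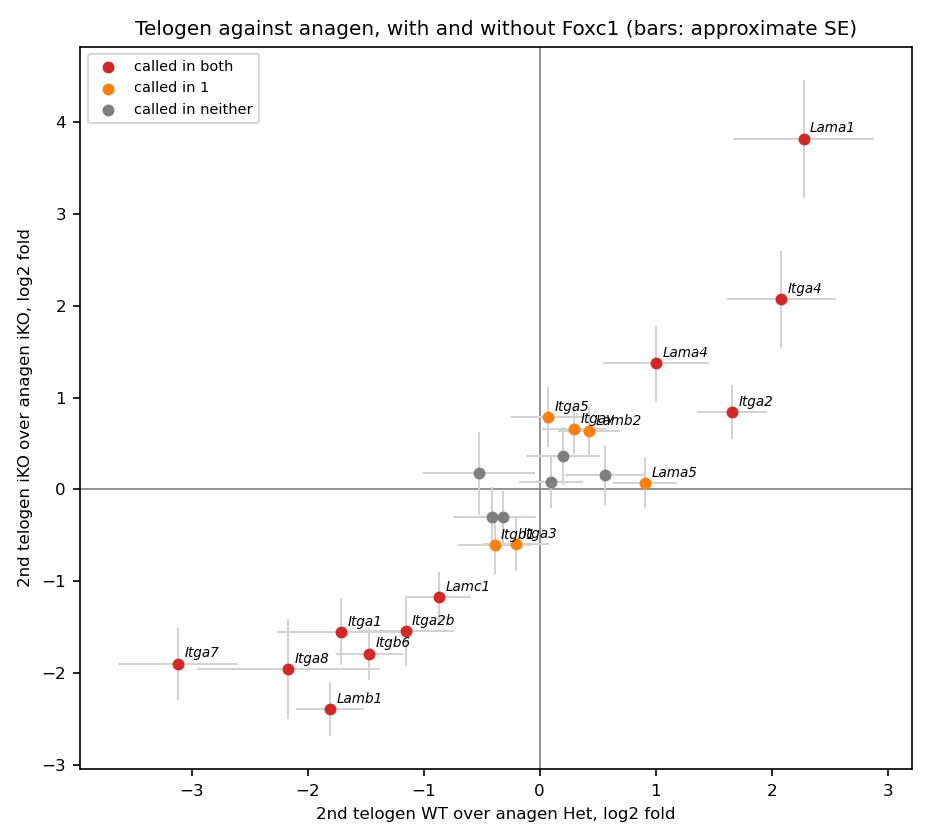
The authors' log2 fold of second telogen over anagen in cells with Foxc1 (x axis) and without it (y axis) for 23 of the 24 subunit genes tested in both comparisons, with bars of 1 approximate SE. The 11 genes called in both lie in the same direction on both axes, 4 higher and 7 lower in telogen.

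The Shh-Het pair has 1 library per group, so its difference has no replicate check and no p. Of 30 genes at 1 FPKM or more in either library, 7 were at least 2-fold higher in anagen II than in first telogen on the log2 (FPKM + 1) scale, 6 were at least 2-fold lower and 17 were neither, where 8.55% of all such genes were higher and 14.1% lower. On that scale Lamb1 differed most, at 10.7 FPKM in first telogen and 105 FPKM in anagen II, 9.04-fold. By FPKM alone Itga4, low in both, had the larger ratio (3.70 to 0.163 FPKM). The others that were higher in anagen II were Itga7, Lama5, Lamc1, Itga2b, Itga3 and Lamc3, so each chain of the Lama5, Lamb1 and Lamc1 laminin was on this side. Lower in anagen II were Itga4, Itga2, Lamb3, Itgb2, Itgam and Lama4. The ratio of Lama5 to Lama3 was 3.49 in anagen II and 0.338 to 0.690 in the other 6 groups. Both libraries held more fibroblast marker RNA than any other group, and anagen II the most Acta2 (254 FPKM). First telogen held more leukocyte marker RNA (310 against 39.4 FPKM) and more endothelial marker RNA (62.4 against 11.2 FPKM) than anagen II. The part of these cells in the differences was not tested.

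Over 6 lists of other genes of the pathway, 13 of 70 tested genes were called in anagen iKO against Het (18.6%, against 10.3% of all genes) and 9 of 69 in telogen cKO against WT (13%, against 6.62%). Of the linkers between integrins and actin, 19 of 22 were tested: Lims1 and Vcl rose and Tns1 and Bcar1 fell in anagen, while Parva rose and Zyx and Tln2 fell in telogen cKO cells. Zyx, a focal adhesion protein, went from 84.7 to 36.3 FPKM there and Parva, which binds the kinase Ilk, from 7.73 to 18.4 FPKM, with q = 0.0103 and 0.00159 in the authors' deposited table. Of 7 tested integrin inhibitors none was called in anagen, and in telogen cKO cells Kank1 fell from 81.9 to 40.6 FPKM with q = 0.00638 in the authors' deposited table.

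Of 17 tested basement membrane genes 4 fell in anagen iKO cells and none rose, where 5.08% of all genes were lower and 5.18% higher. They were Frem2 (8.77 to 3.08 FPKM), Npnt, Col7a1 (60.2 to 34.6 FPKM) and Egfl6 (35.8 to 22.1 FPKM), with q from 0.00106 to 0.00359 in the authors' deposited table. Col7a1 makes the anchoring fibrils under hemidesmosomes, and Egfl6 is a ligand of Itga8. In telogen cKO cells 15 were tested, Fbln2 and Fras1 rose and Frem2 fell (6.89 to 3.59 FPKM, q = 0.00159 in the authors' deposited table). Frem2, a protein that links epidermis to dermis, was thus called lower in both stages. The list's median log2 (FPKM + 1) ratio was -0.21 in anagen and -0.13 in telogen. In anagen this stood beside the fall of 5 of 10 fibroblast markers, whose cells make several of these proteins, and that part was not tested.

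Of 14 tested genes for other ligands and TGF-beta presentation 4 were called in anagen, where 10.3% of all genes were, and 1 in telogen cKO cells, where 6.62% were. Thbs1 (75.1 to 142 FPKM) and Icam1 rose and Ltbp1 (12.4 to 6.14 FPKM) and Ctgf (81.3 to 43.7 FPKM) fell in anagen iKO cells, with q from 0.00106 to 0.00359 in the authors' deposited table. Thbs1 and Ltbp1 both act on latent TGF-beta, and Ctgf is a target of TGF-beta and YAP. In telogen cKO cells only Lrrc32 was called, higher at 0.121 to 0.654 FPKM. Of the other laminin receptors and processing enzymes, Mmp14 fell in anagen, and Mcam, a receptor of the Lama4 laminin, rose in telogen cKO cells from 1.67 to 8.55 FPKM with q = 0.00159 in the authors' deposited table. Lama4 and Mcam were thus both higher in telogen cKO than in WT cells. Between the stages they went opposite ways. Mcam was lower in telogen WT than in anagen Het (25.7 to 1.74 FPKM) and Lama4 was higher (0.653 to 1.31 FPKM). The directions were the same in iKO cells.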

How the data were processed

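The library kit was TruSeq mRNA, per the labels' protocols, and TopHat, Cufflinks, Cuffdiff and the build mm9 are named without versions in the submitters' processing notes. The authors deposited 3 Cuffdiff tables with FPKM pooled per group, log2 fold, a test statistic (score), p-value and q-value; the smallest deposited p-value is 5e-05. No counts are given, so depth is unknown and no counting interval was computed. The tests have 2 libraries per group behind them, and where no label gives separate animals the spread may be technical. Tables were scaled separately (joint minus own: -0.08 anagen, 0.06 telogen, log2), so levels across groups come from the joint table and both knockout comparisons from their own tables.

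Calls use the authors' q below 0.05. The approximate SE is log2 fold divided by the statistic. Ratios for medians use a pseudocount of 1, which understates changes of low genes. The z test of the stage difference was tested on simulated data. All 38 genes are in the counts and 1 is not reported here by name; those called, the named integrin and laminin complexes and the 10 most abundant were given in full, and up to 4 called genes per list by lowest p. The genes and lists were chosen with earlier results of these data known. Alternatives were thresholds, adjustment, filters, pseudocounts and the joint table. Python 3.11.15, pandas 2.3.3 and scipy 1.17.1 were used.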

Additional observations from a re-analysis of the deposited data

How the results depend on the processing

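No paired analysis was possible because the tables hold 1 pooled value per group, and for the same reason the replicate block and leaving out each replicate were not run. No called value changed sign, and the iKO stage median went from -0.04 to 0.02 without a filter. With q below 0.01, the called subunit genes numbered 2 in anagen (Itga8 and Lamb1), 3 in telogen cKO against WT and 2 in telogen iKO against WT. Requiring 2-fold on the log2 (FPKM + 1) scale as well left 0 in anagen, 1 (Itgb6) in cKO, 0 in telogen iKO against WT, 6 in the iKO stage comparison and 5 in the control one. Restricting telogen iKO against WT to genes at 1 FPKM left 4. The stage medians moved with the pseudocount: at 0.1 they were -0.27 (iKO) and -0.26 (control), and without a filter the control median was -0.0078. In the Shh-Het pair a pseudocount of 5 gave 7 genes past 2-fold and a 1.5-fold threshold gave 21. At 5 FPKM 20 genes were expressed, and 19 at 1 FPKM in all 7 groups. In 37 other recomputations counts stayed within 1.5 times and medians within 0.1 of the reported value. For single called genes 139 recomputed calls held and 51 were lost, all under the stricter q, the 2-fold requirement, or, for Itgb4, another adjustment or filter. Genes under 1 FPKM in both groups have no value under that filter, which removed Itga8 from the calls of both telogen knockouts and Lama1 from telogen iKO against WT. It also removed Itga4 and Lama1 from the iKO stage calls and Itga8, Lama1 and Lama2 from the control ones. Low FPKM limits Itga8, Itga4 and Lama1, and depth is unknown.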
